A study of Mus musculus with 2 samples.

Results

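Solute carriers are membrane proteins that move amino acids, sugars, nucleosides, vitamins, metals and inorganic ions across the plasma membrane and the membranes of organelles. The genes examined here were the 173 mouse genes whose symbol starts with Slc and a digit and that had at least 500 unique molecular identifiers (UMIs, tags that count each captured mRNA molecule once) over all barcodes, of 27933 gene symbols in all. They were followed across the vessel types of the mandibular lymph node. The choice used the summed UMI count, and 3 symbols were left out by name, of which 2 reached that count. Of 373 such symbols, 331 were detected and 198 stayed under the limit. Just inside it were Slc16a6 with 547, Slc25a53 with 544 and Slc2a12 with 535 UMIs, and just outside Slc41a2 with 477, Slc19a1 with 467 and Slc25a13 with 433.

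The data were 2 droplet libraries of CD45-depleted cells that had been enriched on beads with antibodies against CD31 and podoplanin. The SAH library came from mice with a subarachnoid hemorrhage made by infusing their own blood, the sham library from mice with a sham operation, and each pooled the nodes of 20 mice at 24 h. Strain, sex and age are not given in the sources used here. With 1 library per group no difference between SAH and sham has a replicate check, so no p-value is given. Intervals are exact 95% intervals that cover counting error only.

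Cells were sorted into classes by a few gate genes, none of them a solute carrier. A barcode was kept if it had 500 genes or more and a mitochondrial share of 10% or less, 11157 of 13952 in sham and 11454 of 13766 in SAH. Lymphatic endothelial cells (LEC, which line the vessels that carry lymph) had at least 1 UMI of Prox1, 2364 cells in sham and 2562 in SAH. Blood endothelial cells (BEC) had no Prox1 UMI, at least 1 of Pecam1 and at least 1 of Ly6c1 or Flt1, 6329 cells in sham and 6480 in SAH. Fibroblasts had neither Pecam1 nor Prox1 and at least 3 UMIs of Dcn and Col3a1, 1532 cells in sham and 1631 in SAH. The labels call the cells lymphatic endothelial cells, yet Prox1-bearing barcodes made up 21.2% of kept barcodes in sham and 22.4% in SAH. Of these LEC, 24.3% in sham and 24.2% in SAH had exactly 1 Prox1 UMI. LEC with no captured Prox1 UMI may thus be missed, and the shares are not exact shares of LEC.

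BEC were divided by 4 marks, and a class held BEC with exactly 1 of them. Aqp7 BEC numbered 157 in sham and 248 in SAH, Kit BEC 912 and 742, and Col13a1 BEC 1579 and 1421. BEC of high endothelial venules (HEV, where lymphocytes enter the node), marked by Fut7 or Chst4, numbered 410 and 590. Unmarked BEC numbered 2185 in sham and 2430 in SAH, and BEC with several marks, 1086 and 1049, stayed in BEC but in no class. The Aqp7 list (Aqp7, Cd36, Gpihbp1, Fabp4) summed to 41472 CPM (UMIs scaled to the same total in every class) in sham and 40485 CPM in SAH Aqp7 BEC. The HEV list (Fut7, Chst4, Glycam1, Madcam1, Ackr1) summed to 44194 and 35091 CPM in HEV BEC, and also to 6232 and 5519 CPM in LEC, nearly all of it Glycam1. The first list holds the gate gene Aqp7 and the second the gate genes Fut7 and Chst4, which are high in their class by selection. These sums therefore do not test the classes. Mmrn1, a marker of LEC that was not a gate, was at 754 and 940 CPM in LEC and 15.4 and 26.8 CPM in BEC. Ccl21a, also listed for LEC, went against the label and was higher in fibroblasts, at 10532 and 15736 CPM, than in LEC, at 941 and 1657 CPM.

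Many barcodes carried transcripts of a second lineage, and more of them in SAH. Among LEC, 23.3% in sham and 35.4% in SAH had at least 2 UMIs of Ly6c1 and Flt1, and 18.2% and 28.6% had at least 3 of Dcn and Col3a1. Among BEC, 7.52% in sham and 13.9% in SAH had at least 3 UMIs of Dcn and Col3a1. The median depth was 6872 UMIs per LEC in sham and 8193 in SAH, 4602 and 4754 per BEC, and 4768 and 6336 per fibroblast. The libraries shared 76 cell barcodes.

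Carriers of this family are grouped by what they move. SLC1, SLC7, SLC38 and, apart from Slc43a3, SLC43 proteins carry amino acids, and SLC2 proteins carry glucose and related sugars. SLC16 proteins carry lactate and other monocarboxylates, and SLC25 proteins metabolites through the inner mitochondrial membrane. In endothelium they are best known from the blood-brain barrier, where Slc2a1 (GLUT1), Slc7a5 (LAT1) and Slc16a1 (MCT1) supply the tissue behind the vessel wall. A UMI tags a molecule once whatever its length, so levels of different genes are compared below in CPM without division by length.

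The sequences below are the 150 bases before the annotated start of 6 genes the results turn on. Slc38a4 is shown as the LEC-led gene with the highest mean level over both libraries, Slc28a2, Slc16a1 and Slc2a1 as genes led by 1 BEC class each, and Slc20a1 and Slc25a33 because their levels were lower in SAH in both kinds of endothelium. They come from RefSeq on GRCm38.p6 and are written 5′ to 3′ on the gene's strand. Capitals mark matches on either strand to 7 short motifs.
Slc38a4, chr15:97055957-97056106, minus strand: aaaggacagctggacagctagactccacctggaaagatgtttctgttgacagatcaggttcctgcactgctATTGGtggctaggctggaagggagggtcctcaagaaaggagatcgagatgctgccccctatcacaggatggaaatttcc
Slc28a2, chr2:122426285-122426434, plus strand: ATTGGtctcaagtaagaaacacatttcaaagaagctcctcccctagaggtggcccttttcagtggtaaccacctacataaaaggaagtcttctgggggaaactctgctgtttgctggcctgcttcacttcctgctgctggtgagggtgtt
Slc16a1, chr3:104638514-104638663, plus strand: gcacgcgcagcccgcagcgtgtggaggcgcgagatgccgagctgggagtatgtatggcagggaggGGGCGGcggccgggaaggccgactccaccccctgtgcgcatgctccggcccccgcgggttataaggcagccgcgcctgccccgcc
Slc2a1, chr4:119108561-119108710, plus strand: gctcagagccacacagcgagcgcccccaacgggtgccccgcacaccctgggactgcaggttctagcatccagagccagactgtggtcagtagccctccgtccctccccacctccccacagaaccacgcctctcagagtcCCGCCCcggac
Slc20a1, chr2:129198614-129198763, plus strand: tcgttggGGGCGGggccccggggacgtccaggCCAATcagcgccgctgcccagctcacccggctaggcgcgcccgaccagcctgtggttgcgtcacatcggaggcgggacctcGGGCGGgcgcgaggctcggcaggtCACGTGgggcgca
Slc25a33, chr4:149774278-149774427, minus strand: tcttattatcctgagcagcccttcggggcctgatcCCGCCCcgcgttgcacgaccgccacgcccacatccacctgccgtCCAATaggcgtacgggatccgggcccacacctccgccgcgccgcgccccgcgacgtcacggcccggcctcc
The promoters differed in base composition. G and C made up 51.3% of the Slc38a4 and 48.7% of the Slc28a2 window, against 74.7% for Slc16a1, 68% for Slc2a1, 76% for Slc20a1 and 72% for Slc25a33, and the median of all 32851 RefSeq windows of this length was 54%. The CCAAT box (CCAAT) was found in the Slc38a4, Slc28a2, Slc20a1 and Slc25a33 windows and in 24.5% of all windows. The GC box (GGGCGG) was found in the Slc16a1, Slc2a1, Slc20a1 and Slc25a33 windows and in 28.6% of all windows. The Slc20a1 window also held the E-box CACGTG, present in 4.30% of windows, which contains the shorter hypoxia core ACGTG of 11.2% of windows on both strands. No window held the AP-1 motif TGANTCA (4.24% of windows), the CRE TGACGTCA (1.36%) or the C/EBP-ATF composite TGATGNAA (2.23%). These matches describe the letters and are not binding sites.

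Summed over all 173 genes, the solute carriers were a small and even share of the mRNA. They held 0.556% of the UMIs in sham LEC and 0.554% in SAH LEC, 0.563% and 0.550% in BEC, and 0.499% and 0.475% in fibroblasts. The sums include 4 genes that are no carriers, at 195 of 5561 CPM in sham LEC and 548 of 5633 CPM in sham BEC. Without these 4, sham BEC would lie below sham LEC. Col13a1 BEC had the highest share of the 5 BEC classes in sham, 0.617%, and Aqp7 BEC in SAH, 0.626%, while HEV BEC had the lowest in both libraries, 0.487% and 0.453%. At least 10 CPM in both libraries was reached by 110 genes in LEC, 92 in BEC and 104 in fibroblasts, and at least 100 CPM by 8, 8 and 9.

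Mitochondrial carriers were among the most abundant members in every lineage. Slc25a3, which brings phosphate to the ATP synthase, stood at 436 CPM in sham and 458 CPM in SAH LEC, at 454 and 441 CPM in BEC and at 327 and 353 CPM in fibroblasts. The ADP/ATP carriers Slc25a4 and Slc25a5 were also abundant in each lineage, with Slc25a4 at 311 and 274 CPM in LEC, 285 and 247 CPM in BEC and 371 and 368 CPM in fibroblasts. These carriers are near copies of each other and have pseudogenes, so reads could be split between them. The 35 mitochondrial carriers summed to 1605 CPM in sham LEC, 1503 CPM in sham BEC and 1417 CPM in sham fibroblasts. In BEC the most abundant gene of the whole group was Slc9a3r2, at 505 CPM in sham and 623 CPM in SAH. It bears an Slc symbol but encodes the scaffold protein NHERF2 and carries nothing itself, as do 3 others among the 173 (Slc9a3r1, Slc7a6os and Slc4a1ap).

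Slc3a2, the heavy chain (4F2hc) that brings several amino acid transporters to the cell surface, was high in all vessels. Its level was 262 CPM in sham and 238 CPM in SAH LEC, 398 and 340 CPM in BEC, and 191 and 150 CPM in fibroblasts. Slc43a3, a nucleobase transporter, stood at 141 and 181 CPM in LEC, 133 and 193 CPM in BEC and 236 and 234 CPM in fibroblasts. Slc50a1, the mammalian SWEET sugar transporter, was at 195 CPM in sham and 202 CPM in SAH BEC.

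Which carriers set the lineages apart was asked by taking a gene as led by a lineage when its level there was at least 2 times that of the next of LEC, BEC and fibroblasts in both libraries. LEC led 10 of the 173 genes, against 5.17% of all 13960 genes compared, BEC led 11, against 4%, and fibroblasts led 15, against 9.13%. The other 137 genes were led by none. The shares of the solute carriers are thus near those of all genes. The map of lineage-led genes shows all 36 with their level in each lineage and library.

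**Figure D1:**
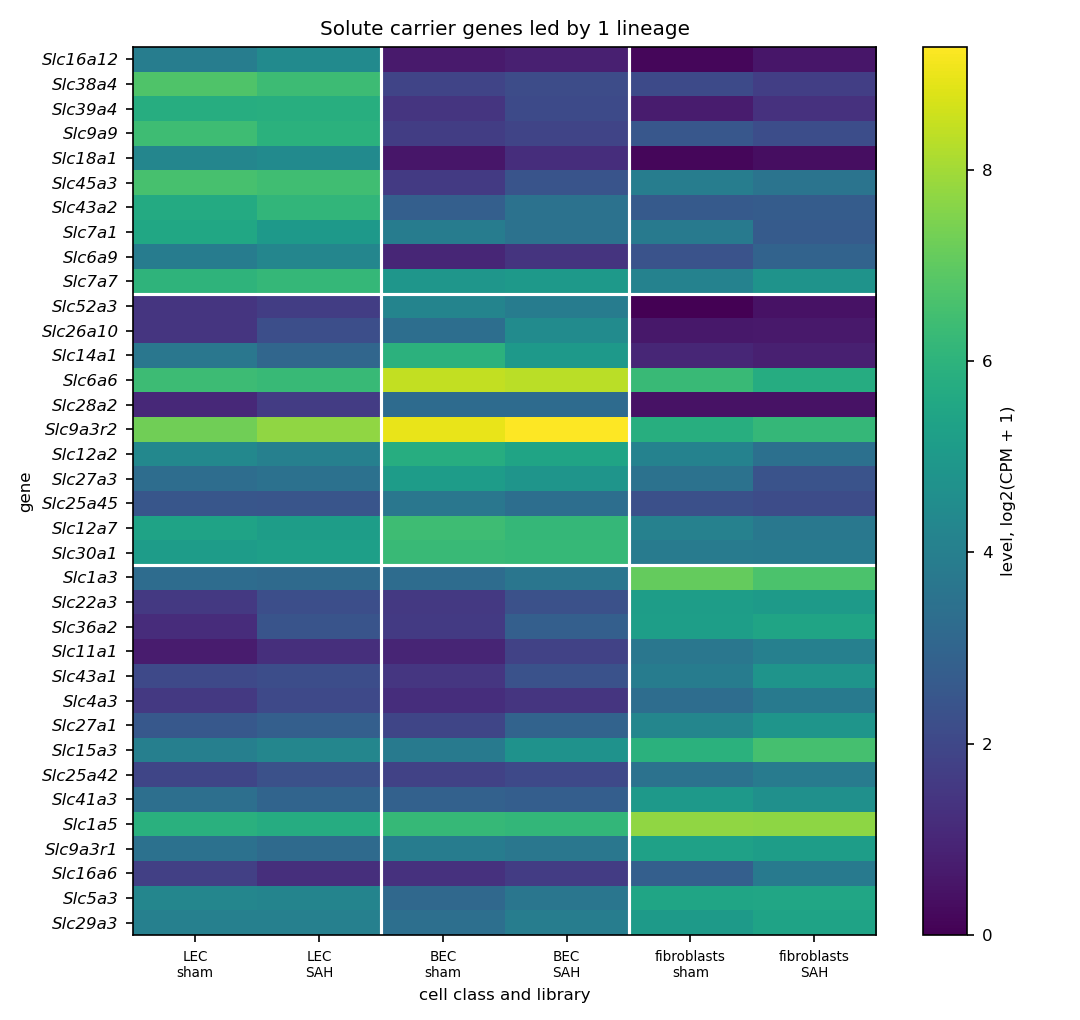
Level of the 36 solute carrier genes led by 1 lineage, as log2(CPM + 1) in color, in LEC, BEC and fibroblasts (columns, sham and SAH side by side); white lines part the genes led by LEC (top, 10), BEC (11) and fibroblasts (bottom, 15). The LEC block has the steepest contrasts, with Slc16a12, Slc38a4 and Slc39a4 low outside LEC, while Slc6a6 and Slc9a3r2 are the brightest rows of the BEC block.

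Amino acid carriers made up 5 of the 10 genes led by LEC. Of the 21 amino acid transporters, fibroblasts led 4 and BEC led 1. The summed level of these 21 genes was not highest in LEC, at 939 CPM in sham and 872 CPM in SAH. It was 1099 and 1022 CPM in BEC and 948 and 850 CPM in fibroblasts. The sum includes the heavy chain Slc3a2 and the taurine transporter Slc6a6. Slc6a6 was at 342 CPM in sham and 323 CPM in SAH BEC, and LEC held 24.0% and 23.1% of that. Without Slc6a6, BEC would lie below LEC in both libraries. Slc38a4, a sodium-coupled importer of neutral amino acids, was at 105 CPM in sham LEC and 80.6 CPM in SAH LEC, against 2.71 and 3.46 CPM in BEC and 3.28 and 2.32 CPM in fibroblasts. It stood 23.3 times above BEC in SAH, where the contrast was smaller (95% interval 19.5 to 28.1). After each cell was thinned to 2000 UMIs, 17.7% of sham LEC and 13.4% of SAH LEC had a UMI of Slc38a4, against 0.467% and 0.632% of BEC. Unthinned, the LEC shares were 43.9% and 40.5%. Slc43a2, a carrier of branched-chain and aromatic amino acids, was at 50.2 and 68.3 CPM in LEC, and Slc7a1, which imports arginine and lysine, at 45.0 and 31.4 CPM. Slc7a7, an exchanger light chain that pairs with Slc3a2, reached 65.1 and 71.9 CPM, and the glycine transporter Slc6a9 14.0 and 18.1 CPM.

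The other LEC-led genes move quite different cargo. Slc16a12, a creatine transporter, was at 14.4 CPM in sham and 20.8 CPM in SAH LEC, 25.0 times the BEC level in sham (16.0 to 41.1) and 27.5 times in SAH. Slc39a4, the zinc importer ZIP4, was at 53.5 and 55.7 CPM in LEC and 1.67 and 3.24 CPM in BEC. Slc9a9, a sodium-proton exchanger of endosomes, was at 84.2 and 60.01 CPM in LEC. Slc18a1, which loads monoamines into vesicles, was at 18.2 and 20.96 CPM in LEC and at 0.466 and 1.35 CPM in BEC. Slc45a3 was at 93.7 and 86.1 CPM in LEC, and its exons overlap another gene on the same strand, so reads of the pair may be mixed.

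BEC-led carriers moved taurine, urea, nucleosides, riboflavin, ions and zinc. Slc6a6, the taurine transporter, was at 342 CPM in sham and 323 CPM in SAH BEC, against 82.0 and 74.8 CPM in LEC, a contrast of 4.17 in sham (3.96 to 4.41). Slc52a3, a riboflavin transporter, was at 17.4 and 14.0 CPM in BEC and stood 6.23 times above LEC in SAH (4.67 to 8.48). Slc14a1, the urea channel UT-B of red cells and vessels that descend into the kidney medulla, was at 61.7 CPM in sham and 30.9 CPM in SAH BEC. Among these genes were also the sodium-potassium-chloride cotransporter Slc12a2 (54.7 and 42.2 CPM), the potassium-chloride cotransporter Slc12a7 (83.7 and 71.1 CPM) and the zinc exporter Slc30a1 (76.9 and 73.6 CPM).

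With the LEC and BEC that bore signs of a second lineage left out, the contrast of several BEC-led genes widened. These LEC were picked by Ly6c1 and Flt1, which are BEC gate genes, or by Dcn and Col3a1. A wider contrast is therefore partly built into the selection and is no independent check. For Slc14a1 it went from 4.23 to 47.6, for Slc52a3 from 6.23 to 27.4 and for Slc26a10 from 5.49 to 19.3. Slc6a6 moved little, from 4.17 to 4.55.

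Fibroblasts led the largest of the 3 groups, as they did over all genes. Slc1a3, the glutamate and aspartate transporter GLAST, was at 134 CPM in sham and 100.1 CPM in SAH fibroblasts, against 8.63 and 11.7 CPM in BEC. Slc1a5, the glutamine exchanger ASCT2, was at 213 and 209 CPM in fibroblasts and 72.8 and 69.5 CPM in BEC. Slc36a2, a proton-coupled importer of small amino acids, was at 35.5 and 42.2 CPM, and the organic cation transporter Slc22a3 at 35.0 and 32.3 CPM. Slc15a3, which exports histidine and peptides from lysosomes, was at 59.7 and 92.4 CPM, and Slc5a3, the myo-inositol transporter, at 42.97 and 43.6 CPM. The contrast of Slc1a3 with BEC in SAH was 8.59 (7.67 to 9.62). It was 51.8 once barcodes with signs of a second lineage were left out. The BEC left out were picked by the fibroblast gate genes Dcn and Col3a1, so this rise is also partly built in.

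Within the blood vessels a gene was taken as led by a BEC class when it was at least 1.5 times as high there as in the next of the 5 classes in both libraries. Of 172 genes with at least 50 UMIs in these classes, Aqp7 BEC led 5, against 2.6% of all 12515 genes, HEV BEC 6, against 2.06%, Col13a1 BEC 3, against 0.775%, unmarked BEC 1, against 1.03%, and Kit BEC 0, against 0.272%. The 157 others were led by no class. The map of BEC-led genes shows those reported here.

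**Figure D2:**
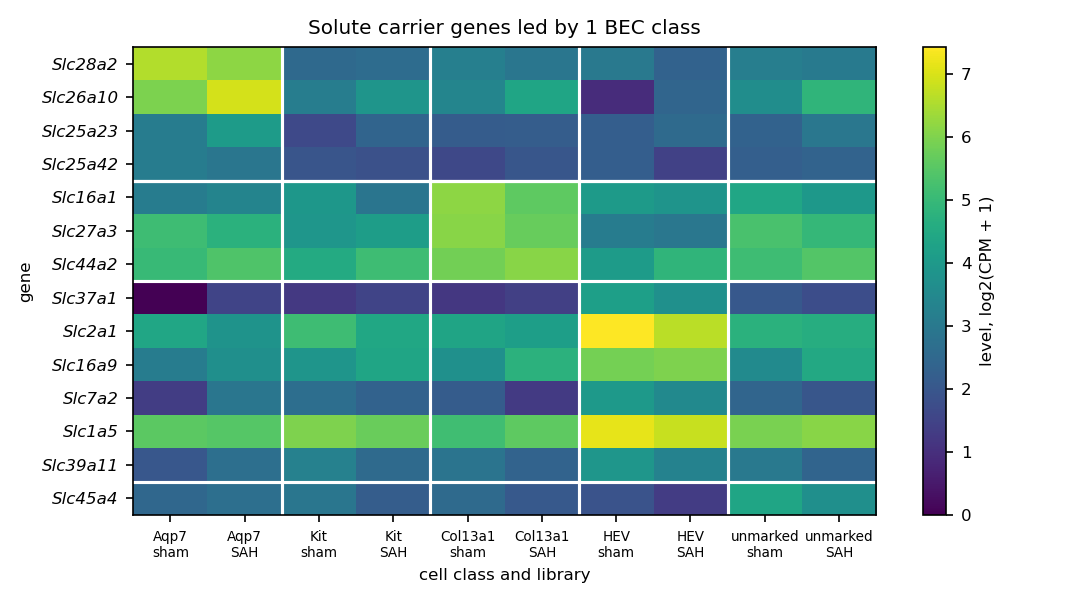
Level of the reported solute carrier genes led by 1 BEC class, as log2(CPM + 1) in color, in the 5 BEC classes (columns, sham and SAH side by side); white lines part the genes led by Aqp7, Col13a1, HEV and unmarked BEC from top to bottom. Slc28a2 and Slc26a10 stand out in Aqp7 BEC, Slc16a1 in Col13a1 BEC and Slc2a1 in HEV BEC, while Slc25a23 and Slc25a42 are low in every class.

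Aqp7 BEC were led by a nucleoside carrier. Slc28a2, a sodium-coupled importer of purine nucleosides, was at 94.1 CPM in sham and 71.5 CPM in SAH Aqp7 BEC, against 8.15 and 6.58 CPM in Col13a1 BEC and 8.10 and 7.39 CPM in unmarked BEC. It was 9.69 times the next class in SAH (6.97 to 13.5). After thinning, 17.97% of sham and 13.9% of SAH Aqp7 BEC had a UMI of Slc28a2, against 1.70% and 0.900% of Col13a1 BEC. Slc26a10, an anion exchanger relative of unknown cargo, was at 61.7 and 124 CPM in Aqp7 BEC and at 11.5 and 28.01 CPM in unmarked BEC, but its exons overlap B4galnt1 on the other strand. Slc25a23 and Slc25a42, at 5 and 7 UMIs in the library with the smaller contrast, had intervals that include 1. Hemoglobin transcripts differed in this class, with the erythroid list at 3999 CPM in sham and 286 CPM in SAH, and their part in these levels was not tested.

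Col13a1 BEC were led by a lactate carrier. Slc16a1, the lactate and pyruvate transporter MCT1, was at 71.4 CPM in sham and 47.3 CPM in SAH Col13a1 BEC, 3.27 times unmarked BEC in SAH (2.70 to 3.98). The fatty acid transport protein Slc27a3 was at 68.0 and 51.1 CPM there, and Slc44a2, a choline transporter-like protein, at 56.1 and 67.7 CPM. Of these contrasts that of Slc44a2 was the smallest, 1.61 (1.41 to 1.83). It was below 1.5 when barcodes with signs of a second lineage were left out (1.38), with at most 5% mitochondrial UMIs (1.43), with each cell weighing alike (1.41) and after thinning (1.45).

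HEV BEC were led by the glucose transporter Slc2a1 (GLUT1), at 172 CPM in sham and 99.3 CPM in SAH, 4.14 times unmarked BEC in SAH (3.54 to 4.85). After thinning, 22.5% of sham and 14.8% of SAH HEV BEC had a UMI of Slc2a1, against 4.94% and 4.70% of unmarked BEC. Slc37a1, which moves glucose 6-phosphate over the membrane of the endoplasmic reticulum, was at 17.2 and 12.3 CPM in HEV BEC, 5.13 times unmarked BEC (3.16 to 8.57). The contrast was 2.14 after thinning and 2.47 with each cell weighing alike. Slc16a9, linked to carnitine, was at 57.5 and 62.2 CPM, and Slc1a5 at 140 and 111 CPM. The contrasts of Slc7a2 and Slc39a11 rested on 7 and 6 UMIs in the next class and their intervals include 1. Salivary gland transcripts (Smr3a, Bpifa2, Prol1, Aqp5) summed to 140 CPM in sham and 4912 CPM in SAH HEV BEC, and their part in these levels was not tested.

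**Figure D3:**
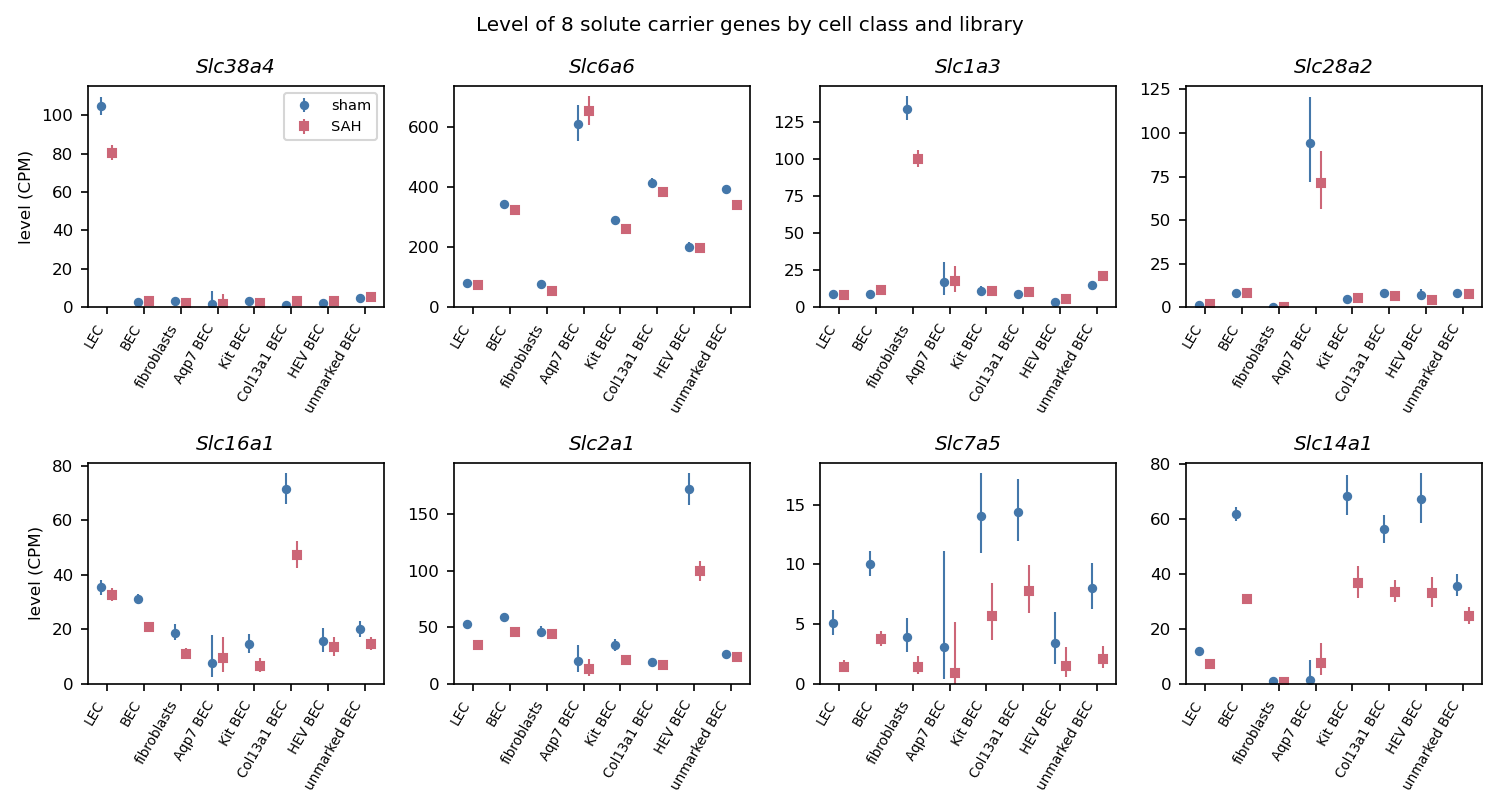
Level (CPM) of 8 solute carrier genes in LEC, BEC, fibroblasts and the 5 BEC classes, sham as circles and SAH as squares, with exact 95% Poisson intervals as bars (counting error only; 1 library per group). Slc38a4 and Slc1a3 are high in 1 lineage, Slc28a2, Slc16a1 and Slc2a1 in 1 BEC class, and the SAH points of Slc7a5 and Slc14a1 lie below sham in every class with at least 50 UMIs.

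Slc45a4 was the only gene led by unmarked BEC, at 19.5 CPM in sham and 11.9 CPM in SAH. Its next class in SAH held 6 UMIs, and the interval of the contrast there includes 1 (2.13, 0.953 to 5.93). Kit BEC led none in the main setting. Slc14a1 was at 68.4 CPM in sham and 36.5 CPM in SAH Kit BEC, and at 67.1 and 33.0 CPM in HEV BEC. These levels were not particular to them, since Col13a1 BEC held Slc14a1 at a similar level. Aqp7 BEC had 1 UMI of it in sham and 8 in SAH, or 1.54 and 7.43 CPM. Slc6a6 ran the other way, at 611 and 654 CPM in Aqp7 BEC and 200 and 197 CPM in HEV BEC.

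How the carriers differed between SAH and sham was described by the ratio of their CPM, with a gene called higher or lower when past 1.5-fold. In LEC, 11 of 172 genes were higher (6.40%) and 8 lower (4.65%), against 7.87% and 5.04% of all genes. In BEC, 19 of 172 were higher (11.05%) and 6 lower (3.49%), against 10.5% and 4.51%. In fibroblasts, 11 of 160 were higher (6.88%) and 16 lower (10%), against 7.09% and 8.28%. All of these shares are near the background, and the median log2 ratio of the solute carriers was 0.01 in LEC, -0.04 in BEC and -0.13 in fibroblasts, beside 0.00, 0.03 and -0.06 over all genes. The plot of ratios shows every gene called.

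**Figure D4:**
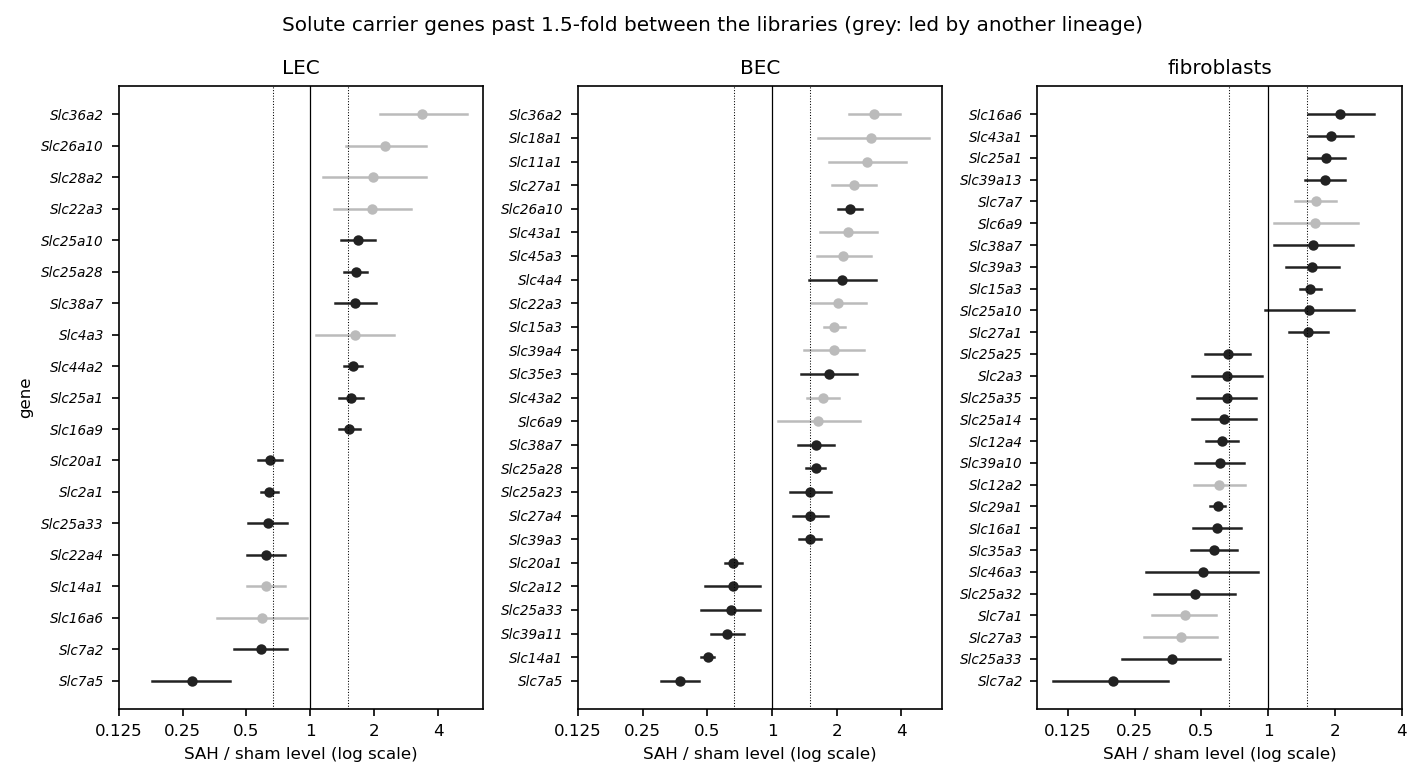
Ratio of the SAH to the sham level (log scale) of the solute carrier genes past 1.5-fold in LEC (19), BEC (25) and fibroblasts (27), with exact 95% intervals for counting error as bars; dotted lines mark 1.5-fold either way and grey marks genes led by another lineage. Slc7a5 is the lowest in LEC and BEC and Slc7a2 in fibroblasts, and grey points make up most of the higher genes in BEC.

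Slc7a5 had the lowest ratio of the genes entered in LEC and in BEC. This light chain of LAT1 (chr8:121881150-121907694 on GRCm38) was at 5.06 CPM in sham LEC and 1.41 CPM in SAH LEC, a ratio of 0.278 (0.180 to 0.420). In BEC it was at 10.0 and 3.75 CPM, a ratio of 0.373 (0.305 to 0.455), and in fibroblasts at 3.91 and 1.39 CPM on 31 and 15 UMIs, too few to enter. All 3 BEC classes with enough UMIs were lower, Kit BEC at 0.406, Col13a1 BEC at 0.538 and unmarked BEC at 0.264. Over the alternatives run, the ratio stayed between 0.211 and 0.309 in LEC and between 0.366 and 0.419 in BEC. Its partner Slc3a2 was not past 1.5-fold in either, at 0.908 (0.874 to 0.944) in LEC and 0.855 (0.835 to 0.876) in BEC.

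The arginine and lysine transporters Slc7a1 and Slc7a2 were lower in fibroblasts. Slc7a2 (CAT2) was at 7.43 CPM in sham and 1.49 CPM in SAH fibroblasts, on 59 and 16 UMIs, a ratio of 0.200 (0.107 to 0.352), and in LEC its ratio was 0.583 (0.438 to 0.774). Slc7a1 (CAT1) was at 12.9 and 5.39 CPM in fibroblasts, a ratio of 0.419 (0.298 to 0.584). Without passing 1.5-fold it was also lower in LEC, from 45.0 CPM in sham to 31.4 CPM in SAH. In the 4 BEC classes where it had enough UMIs its ratios ran from 0.713 to 0.839. Other genes of their family went differently in fibroblasts, with Slc7a7 higher, at 16.3 and 26.6 CPM (1.63, 1.32 to 2.03), and Slc7a6 at 1.06 (0.856 to 1.30). Slc38a7, which exports glutamine from lysosomes, was higher in all 3 lineages, at 1.63 (1.31 to 2.04) in LEC, 1.60 (1.33 to 1.94) in BEC and 1.59 (1.07 to 2.42) in fibroblasts. It was the only gene of the 173 higher in all 3. Of the 3 BEC classes where Slc38a7 had enough UMIs, 2 were called higher, and Kit BEC was at 0.953 (0.599 to 1.51).

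Beside Slc7a5, the genes Slc14a1, Slc20a1 and Slc25a33 were lower in both LEC and BEC. Slc14a1 was at 11.8 CPM in sham and 7.31 CPM in SAH LEC (0.617, 0.501 to 0.758), and in BEC at 61.7 and 30.9 CPM (0.502, 0.467 to 0.539). The LEC ratio was 0.818 without barcodes with signs of a second lineage, while the BEC ratio was 0.540. Slc20a1, the sodium-coupled phosphate importer PiT1, was at 28.6 and 18.5 CPM in LEC (0.647, 0.568 to 0.736) and at 31.8 and 21.01 CPM in BEC (0.660, 0.602 to 0.724), and in fibroblasts at 10.1 and 11.8 CPM (1.17, 0.878 to 1.57). Slc20a2, the other plasma membrane phosphate importer among the 173 genes, was at 0.762 (0.557 to 1.04) in LEC and 0.788 (0.634 to 0.978) in BEC. Slc25a33, which brings pyrimidine nucleotides into mitochondria, was at 11.04 and 6.96 CPM in LEC (0.630), 2.90 and 1.86 CPM in BEC (0.642) and 6.30 and 2.32 CPM in fibroblasts (0.369, 0.219 to 0.607). It was the only gene lower in all 3 lineages, but over the alternatives its ratio ran from 0.536 to 0.718 in LEC and from 0.441 to 0.789 in BEC, so that in both it crossed the 1.5-fold limit. Slc20a1 ran from 0.602 to 0.670 in LEC and from 0.593 to 0.699 in BEC, and so also crossed the limit in both. The exons of Slc20a1 and Slc25a33 overlap genes on the other strand, and whether the counting used strand is not given in the sources used here.

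The glucose transporter Slc2a1 and the lactate transporter Slc16a1 were lower in some of the classes. Slc2a1 was at 52.8 CPM in sham and 33.9 CPM in SAH LEC (0.642, 0.583 to 0.706), and at 0.579 (0.510 to 0.656) in HEV BEC and 0.606 (0.463 to 0.787) in Kit BEC. In Col13a1 BEC it was at 0.887 (0.699 to 1.12), in unmarked BEC at 0.922 (0.768 to 1.11) and in fibroblasts at 0.947 (0.824 to 1.09). Slc16a1 was lower in Col13a1 BEC, at 0.662 (0.580 to 0.756), in Kit BEC, at 0.444 (0.275 to 0.699), and in fibroblasts, at 0.589 (0.459 to 0.754), and was at 0.923 (0.830 to 1.03) in LEC. The differences between these classes were not tested. Other genes of the sugar transporter and monocarboxylate carrier lists were higher in some classes. Among them were the myo-inositol transporter Slc5a3 in Kit BEC (1.87, 1.23 to 2.88) and Col13a1 BEC (1.67, 1.198 to 2.33). Slc16a9 was higher in Col13a1 BEC (2.14, 1.68 to 2.74).

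The counts of called genes in the BEC classes were small. Kit BEC had 11 higher and 10 lower of 133 genes (8.27% and 7.52%), against 8.33% and 5.29% of all genes. Col13a1 BEC had 17 and 10 of 151 (11.3% and 6.62%), against 8.86% and 4.24%. HEV BEC had 9 and 11 of 122 (7.38% and 9.02%), against 8.59% and 5.17%. Unmarked BEC had 23 and 7 of 168 (13.7% and 4.17%), against 9.95% and 4.48%. Aqp7 BEC had 3 and 0 of 41 (7.32% and 0%), against 11% and 6.7%. Some calls have intervals that include 1, such as Slc35e2 and Slc10a3 in HEV BEC. Differences between the classes were not tested. Slc39a11, a zinc transporter of the ZIP family, was lower in all 4 classes where it had enough UMIs, with ratios from 0.581 to 0.662. Slc26a10 was higher in all 4, from 1.77 to 2.44, and Slc15a3 in all 4, from 1.63 to 2.09. Slc14a1 was called lower in 3 of 4, with ratios from 0.493 to 0.694.

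Most of the genes higher in BEC were genes that another lineage led, 11 of the 19, among them the fibroblast genes Slc36a2, Slc11a1, Slc27a1, Slc43a1, Slc22a3 and Slc15a3 and the LEC genes Slc18a1, Slc45a3, Slc39a4, Slc43a2 and Slc6a9. Led by no other lineage were 8 of the 19, beside 815 of the 1348 genes higher in BEC over all genes. LEC markers in BEC went both ways as a percent of their LEC level, Reln from 2.63% in sham to 4.24% in SAH, Mmrn1 from 2.04% to 2.85%, Flt4 from 15.0% to 14.1% and Lyve1 from 5.54% to 4.21%. Fibroblast markers were higher in SAH BEC. The fibroblast list summed to 1068 CPM in sham and 1894 CPM in SAH BEC, and Dcn, Col1a1, Col1a2, Pdgfra and Lum stood in sham BEC at 5.32% to 6.33% of their fibroblast level and in SAH BEC at 10.6% to 13.6%. Slc22a3 was at 5.55% and 12.2%, Slc36a2 at 5.63% and 14.1%, Slc1a3 at 6.45% and 11.6%, and Slc11a1 at 7.78% and 16.5%, at or somewhat above the percents of those markers. Slc15a3, at 22.01% and 27.7%, and Slc27a1, at 15.3% and 24.2%, stood well above them.

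**Figure D5:**
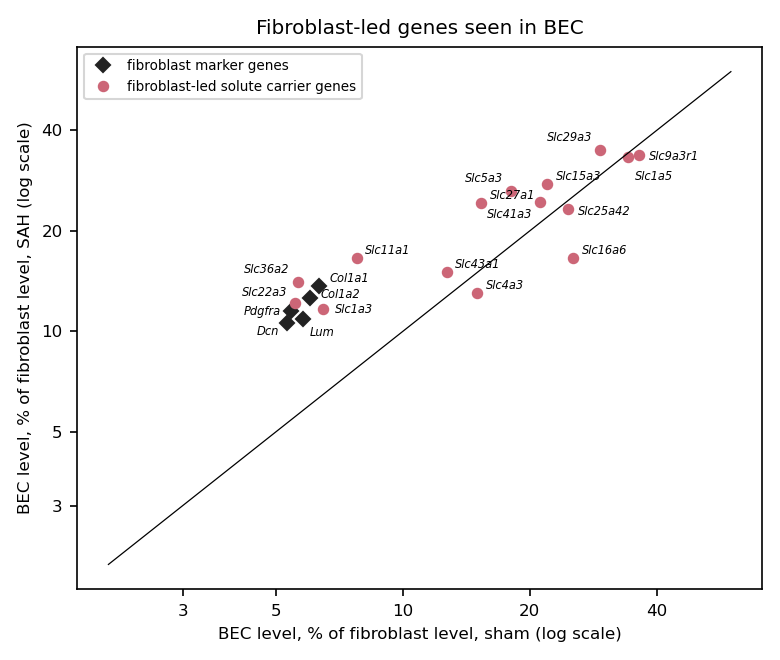
Level in BEC as a percent of the fibroblast level, sham on the x axis and SAH on the y axis (both log scale), for 5 fibroblast markers (diamonds) and the 15 fibroblast-led solute carrier genes (circles); the line marks equal percent. Slc22a3, Slc36a2 and Slc1a3 lie among the markers, and the genes at the upper right, such as Slc1a5 and Slc9a3r1, have BEC levels of about the same percent in both libraries.

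Leaving out the BEC with at least 3 UMIs of Dcn and Col3a1 changed some of these ratios and not others. Slc43a1 went from 2.26 to 1.32, Slc4a4 from 2.12 to 1.22, Slc11a1 from 2.75 to 1.82 and Slc27a1 from 2.39 to 1.85. Slc36a2 went from 2.97 to 3.78 and Slc26a10 from 2.30 to 2.43. Without any gene that another lineage led, 8 of 148 solute carriers were higher in BEC (5.41%), against 7.15% of all genes treated alike, and in LEC 6 of 147 (4.08%), against 6.78%.

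Among the genes higher in BEC that no other lineage led, Slc26a10 had the largest ratio. It was at 9.17 CPM in sham and 21.1 CPM in SAH BEC, a ratio of 2.30 (2.03 to 2.63). Slc25a28, mitoferrin 2, which brings iron into mitochondria, was at 16.2 and 25.8 CPM in BEC (1.60, 1.44 to 1.77) and at 20.5 and 33.4 CPM in LEC (1.63, 1.44 to 1.85), and in fibroblasts at 1.41 (1.16 to 1.71). Slc39a3, a zinc importer, was at 12.7 and 18.98 CPM in BEC, just past the limit, with an interval of the ratio from 1.33 to 1.69. In LEC the choline transporter-like Slc44a2 was at 34.2 and 54.4 CPM (1.59, 1.44 to 1.75), the mitochondrial citrate carrier Slc25a1 at 20.9 and 32.4 CPM (1.55, 1.37 to 1.76) and the dicarboxylate carrier Slc25a10 at 9.42 and 15.7 CPM (1.67, 1.39 to 2.01). The last pair was also higher in fibroblasts, Slc25a1 at 1.83 (1.52 to 2.21) and Slc25a10 at 1.52, with an interval from 0.970 to 2.44.

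LEC and BEC shared 5 genes called higher (Slc22a3, Slc25a28, Slc26a10, Slc36a2 and Slc38a7), 45.5% of those in LEC and 26.3% of those in BEC, beside 55.8% and 40.1% over all genes. They shared 4 called lower (Slc7a5, Slc14a1, Slc20a1 and Slc25a33), 50% and 66.7%, beside 41.9% and 44.9% over all genes. Slc36a2 was at 1.29 CPM in sham and 4.31 CPM in SAH LEC, a ratio of 3.34 (2.12 to 5.46), and of 4.96 without barcodes with signs of a second lineage. Slc22a3 was at 1.88 and 3.65 CPM in LEC, a ratio of 1.94 (1.29 to 2.97), and of 1.15 without them. Slc28a2 had 20 and 48 UMIs in LEC, a ratio of 1.96 (1.14 to 3.49), which became 0.430 without them. Slc22a4, a carrier of ergothioneine, was lower in LEC, at 12.2 and 7.53 CPM (0.619, 0.504 to 0.758).

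Of the 16 genes lower in fibroblasts, the 3 most abundant in sham are given here. Slc29a1, the equilibrative nucleoside transporter ENT1, was at 176 CPM in sham and 104 CPM in SAH fibroblasts (0.593, 0.547 to 0.641), and stood at 0.761 in LEC and 0.697 in BEC. Of the 3 genes entered from the nucleoside transporter list, which includes the nucleobase transporter Slc43a3, only Slc29a1 was lower. Slc29a3 was at 1.24 (1.06 to 1.45). Slc12a4 was at 41.1 and 25.4 CPM (0.617, 0.524 to 0.727), and Slc35a3, which carries UDP-N-acetylglucosamine into the Golgi, at 20.0 and 11.4 CPM (0.570, 0.447 to 0.726). Slc39a13, a zinc transporter of the secretory pathway whose loss is known to disturb connective tissue, was higher, at 16.6 and 30.01 CPM (1.80, 1.47 to 2.23).

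The counts by family are to be read beside the shares of all genes, in LEC 7.87% higher and 5.04% lower, in BEC 10.5% and 4.51%, and in fibroblasts 7.09% and 8.28%. Of the 35 mitochondrial carriers 3 were higher and 1 lower in LEC, 2 and 1 in BEC, and 2 and 5 in fibroblasts, with a median log2 ratio of -0.04, -0.11 and -0.24. The 21 amino acid transporters had 2 higher and 2 lower in LEC, 5 and 1 in BEC, and 4 and 2 of 20 in fibroblasts. Nucleotide sugar carriers, 20 genes, had none called in LEC and a single gene in BEC, Slc35e3. None of the 16 zinc transporters was called in LEC, 2 were higher and 1 lower in BEC, and 2 and 1 of 15 in fibroblasts. The 6 sodium-coupled cation exchangers had no call in any lineage, with medians of -0.06, 0.09 and -0.10. Cycling transcripts (Mki67 and Top2a) summed to 38.3 CPM in sham and 13.8 CPM in SAH LEC and to 32.0 and 7.72 CPM in BEC, and their part in these ratios was not tested.

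The exons of Slc2a1, Slc6a9, Slc7a2, Slc7a7, Slc12a4, Slc15a3, Slc16a6, Slc16a9, Slc22a3, Slc25a10, Slc25a23, Slc29a1, Slc39a13 and Slc43a2 also overlap genes on the other strand, those of Slc35a3 a gene on the same strand, and their values carry the same limit as those of Slc26a10.

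Genes that work with these carriers were read from lists. Their counts are to be read beside the shares of all genes past 1.5-fold. These were 7.87% higher and 5.04% lower in LEC, 10.5% and 4.51% in BEC, and 7.09% and 8.28% in fibroblasts. Of 16 glycolysis genes, 2 were higher and 1 lower in LEC, 1 and 1 in BEC, and 4 and 1 in fibroblasts, with median log2 ratios of 0.15, 0.17 and 0.27. The glycolytic enzyme Pgk1 was higher in all 3, from 6.89 CPM in sham to 14.6 CPM in SAH LEC, and hexokinase Hk2 lower, from 4.47 to 1.01 CPM. Of 16 genes of the amino acid response under ATF4, 2 of the 14 entered were higher in LEC and 0 lower, 2 and 2 of 15 in BEC, and 0 and 1 of 13 in fibroblasts. Atf4 itself was at 150 and 162 CPM in LEC and 143 and 161 CPM in BEC. Of 31 other transport genes, 25 entered in LEC, with 3 higher and 1 lower. In BEC 3 of 27 were higher and 2 lower, and in fibroblasts 2 of 24 were higher and 3 lower. The fatty acid transporter Cd36 was higher in BEC, from 151 CPM in sham to 422 CPM in SAH. It was also higher in fibroblasts, from 9.45 to 20.9 CPM. Fabp5, a fatty acid binding protein, was lower in LEC, from 165 to 68.4 CPM, and in fibroblasts, from 132 to 25.3 CPM. The BEC ratio of Fabp5 was 0.684, short of the limit. Gpihbp1 was higher in all 3 lineages. The metallothioneins Mt1 and Mt2, which hold zinc, stood in fibroblasts at 958 and 228 CPM in sham and 683 and 129 CPM in SAH. Mt1 was at 215 and 285 CPM in LEC and 83.6 and 102 CPM in BEC, and Mt2 at 94.2 and 104 CPM in LEC and 26.6 and 24.9 CPM in BEC.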

How the data were processed

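Single-cell RNA of 1 sham and 1 SAH library was read from the raw UMI count matrices that the authors deposited. Per the submitters' processing notes, Cell Ranger 5.0 with STAR was used on the build mm10, and Seurat 3.0.2 is also named. Per the labels' protocols, cDNA was tagged at its 5′ end. Annotation release, intron counting and strand are not given in the sources used here. Counts of entries sharing a symbol were summed (27998 entries, 27933 symbols). Total UMIs were 72860197 in sham and 78497486 in SAH.

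UMIs were summed per class and divided by the class total (CPM). Ratios carry exact conditional binomial intervals, levels exact Poisson intervals and shares of cells exact binomial intervals. Genes entered with at least 50 UMIs over both libraries. No count model was run, since each group is 1 library. The ratio script was tested on simulated data. Doublets were kept. Scrublet (scanpy 1.11.5, expected rate 0.1) called 729 sham (5.23%) and 876 SAH barcodes (6.36%), left out in an alternative. Python 3.11.15, numpy 2.4.6, scipy 1.17.1 and pandas 2.3.3 were used. All 173 gene IDs are in GENCODE M21 (GRCm38), and 131 genes have a RefSeq promoter entry. Of 69 named genes with coordinates, 20 have an exon overlapping a gene on the other strand and 2 on the same strand.

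Genes, lists and tests were chosen with earlier results of these data known, and the family lists were corrected after values were seen. Genes were named by a rule: the 6 most abundant of each lineage, up to 6 led genes for each lineage and BEC class, up to 8 highest and 8 lowest ratios past 1.5-fold in each lineage, up to 3 of each family, and those next to the 500 UMI limit. Other named genes were chosen after their values were seen. In all 10 alternatives were planned and 1 was added later. A gene led by Aqp7 BEC is counted but not reported here.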

Additional observations from a re-analysis of the deposited data

Results flagged for a closer look

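Slc16a6, a monocarboxylate carrier family member (MCT7), went in opposite directions in 2 lineages. In fibroblasts it was at 6.05 CPM in sham and 12.7 CPM in SAH, a ratio of 2.10 (95% interval 1.504 to 2.99) on 48 and 137 UMIs. In LEC it was at 2.37 and 1.41 CPM, a ratio of 0.595 (0.365 to 0.959) on 44 and 32 UMIs. The difference between the lineages was not tested, and each group is 1 library. Its exons overlap Amz2 and Arsg on the other strand.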

How the results depend on the processing

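No paired analysis was possible because each group is 1 library, and no library could be left out. Of the single-gene SAH to sham ratios under the alternatives, 352 stayed within their interval, 28 moved and 1 reversed. Of the ratios to the next class, 200 stayed, 62 moved and 2 reversed. Slc28a2 in LEC reversed to 0.430 without barcodes with signs of a second lineage, Slc25a23 in Aqp7 BEC to 0.803 of the next class under stricter gates, and Slc39a11 in HEV BEC to 0.802 after thinning. With at least 200 UMIs per gene, fewer genes were compared, and the genes higher in LEC went from 11 to 6, those higher in fibroblasts from 11 to 7 and those lower in fibroblasts from 16 to 7. Without genes led by another lineage, an alternative chosen after seeing the data, 6 were higher in LEC and 8 in BEC. Genes lower in LEC went from 8 to 3 without barcodes with signs of a second lineage, 2 of them among the 8, and to 5 with each cell weighing alike. Genes led by Aqp7 BEC went from 5 to 9 with each cell weighing alike and to 9 after thinning. Genes led by Kit BEC went from 0 to 1 under stricter gates. Genes led by unmarked BEC went from 1 to 0 under stricter gates, to 4 without predicted doublets, to 4 with at most 5% mitochondrial UMIs and to 2 with at least 1000 genes. The cause was not tested. Thinning kept 5 of the 11 genes higher and 4 of the 8 lower in LEC, 12 of the 19 higher and 3 of the 6 lower in BEC, and 6 of the 11 higher and 8 of the 16 lower in fibroblasts. Leaving out barcodes with signs of a second lineage kept 6 of the 11 higher and 2 of the 8 lower in LEC, and 12 of the 19 higher and 3 of the 6 lower in BEC. Median-of-ratios scaling kept 4 of the 6 lower in BEC and 12 of the 16 lower in fibroblasts. With 157 cells in sham, depth limits Aqp7 BEC most, where 41 genes could be compared between libraries.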
